A study of Mus musculus with 6 samples.

Results

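The stretch of chromosome 12 from 15.5 to 37.0 Mb (mm9) holds the genes Trib2, Lpin1, Taf1b, Trappc12 and Tspan13 and was examined for chromatin accessibility in Stat6 knockout (KO) and wild type (WT) T follicular helper (Tfh) cells. The segment was chosen from measured values, namely the density of KO against WT differences in these same libraries, and its members were then all peaks of the deposited table that start in that interval. It holds 1480 of 282898 peaks, 50 of them strong (a mean of at least 20 reads over the 6 libraries) and 1430 weak. Because the choice used the genotype contrast, every KO against WT value below is a description and was not tested. ATAC-seq, which cuts and tags open chromatin with a transposase, was run on the 3 populations named Tfh21, Tfh214 and Tfh4 in the labels. The 6 libraries are WT Tfh21, WT Tfh214, WT Tfh4, KO Tfh21, KO Tfh214 and KO Tfh4, so each genotype and population has 1 library. All mice carry the C57BL/6 strain label and the untreated label, and the genotypes are labelled as Stat6 WT or Stat6 knockout. Cells were pooled from 10 mice of each genotype, sorted directly ex vivo and used at 50000 cells a library; the labels do not state age, sex or how the Stat6 allele was made.

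The libraries held 798555 to 1373218 reads in peaks, with KO Tfh214 the shallowest, and values are given as reads or as CPM, reads scaled to the library's total in peaks. Intervals are 95% intervals that cover counting error only, and differences between animals are not in them. The 6 Stat6 peaks on chromosome 10 summed to 42.2 to 54.3 CPM in WT and 54.2 to 63.9 CPM in KO, so they overlapped between genotypes and do not check the labels. All 10 T and Tfh marker genes had peaks (456 to 531 CPM summed in WT, 435 to 623 in KO). Among markers of other cells, 4 of 6 B cell genes had peaks (102 to 145 CPM in WT, 91.3 to 106 in KO), with none at Ms4a1 or Cd79a; of 2 CD8 genes Cd8a had none and Cd8b1 had 7.86 to 13.1 CPM in WT and 3.81 to 12.1 in KO. The 4 myeloid genes summed to 48.0 to 49.9 CPM in WT and 36.2 to 50.9 in KO. Their part in the results was not tested. In pooled cells, fewer cells with an open site and less opening in each cell cannot be told apart.

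STAT6 is the transcription factor that relays the IL-4 and IL-13 receptors to the nucleus, and IL-4 is one of the cytokines Tfh cells give to germinal centre B cells. The Stat6 gene itself lies on chromosome 10, not here. Peaks at transcription start sites mark promoters, which are open in many cell types, while weaker peaks inside introns and between genes include enhancers. Of the 5 genes of the segment's description, Trib2 encodes a pseudokinase of the Tribbles family, Lpin1 a phosphatidate phosphatase of lipid synthesis, Taf1b a subunit of the RNA polymerase I initiation factor SL1, Trappc12 a subunit of the TRAPP complex of vesicle transport and Tspan13 a tetraspanin membrane protein.

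The start sites of Trib2, Taf1b, Trappc12 and Tspan13 had peaks in every library, and the 250 bases before each RefSeq start are shown because their start-site peaks carry several of the larger differences. The sequences come from RefSeq (GRCm38.p6), a later build than the mm9 of the peaks, and were matched by gene symbol without converting coordinates. They lie at chr12:15816786-15817035 (minus strand), chr12:24498331-24498580 (plus), chr12:28750401-28750650 (minus) and chr12:36042479-36042728 (minus), and each is written 5′ to 3′ toward the gene with motif matches in capitals.
Trib2: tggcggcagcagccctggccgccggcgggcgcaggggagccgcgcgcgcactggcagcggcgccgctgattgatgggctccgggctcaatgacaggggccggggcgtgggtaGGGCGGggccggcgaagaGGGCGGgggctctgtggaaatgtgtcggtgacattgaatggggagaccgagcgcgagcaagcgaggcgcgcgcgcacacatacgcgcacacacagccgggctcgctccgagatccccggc
Taf1b: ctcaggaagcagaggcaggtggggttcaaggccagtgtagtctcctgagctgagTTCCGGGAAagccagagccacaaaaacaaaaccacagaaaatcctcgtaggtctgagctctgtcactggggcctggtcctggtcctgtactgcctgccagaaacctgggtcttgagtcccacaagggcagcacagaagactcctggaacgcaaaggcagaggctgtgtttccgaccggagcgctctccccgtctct
Trappc12: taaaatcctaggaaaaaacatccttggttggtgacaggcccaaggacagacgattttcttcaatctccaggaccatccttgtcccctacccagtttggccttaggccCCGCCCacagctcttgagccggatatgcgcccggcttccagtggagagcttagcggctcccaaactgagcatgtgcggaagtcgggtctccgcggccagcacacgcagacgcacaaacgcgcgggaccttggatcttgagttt
Tspan13: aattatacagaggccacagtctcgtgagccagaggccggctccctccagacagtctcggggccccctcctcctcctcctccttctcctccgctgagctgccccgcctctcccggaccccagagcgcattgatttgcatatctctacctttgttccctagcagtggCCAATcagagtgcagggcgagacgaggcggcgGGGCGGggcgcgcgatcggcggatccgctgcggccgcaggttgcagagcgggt

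Both strands were searched for GGGCGG (the SP1 box, in 32.7% of 32851 RefSeq promoter windows of this length), CCAAT (33.8%), TTCNNNGAA (the STAT spacing, 7.02%), TTCNNNNGAA (the STAT6 spacing, 5.85%), CCGGAAG (ETS, 6.91%) and TGACGTCA (CRE, 1.55%). The Trib2 window holds 2 GGGCGG boxes, and those of Trappc12 and Tspan13 hold 1 each. The Tspan13 window also has 1 CCAAT, and the Taf1b window has 1 match to the STAT spacing, TTCCGGGAA, which lies 196 to 188 bases before the start. None of the 4 windows holds the letters of the STAT6, ETS or CRE motif. The windows are rich in CG dinucleotides in the case of Trib2 (34), Tspan13 (21) and Trappc12 (15), against a median of 6 over all windows, while Taf1b has 7.

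The segment is thinly filled. It has 68.8 peaks per Mb against 110 on the rest of chromosome 12, and 2.33 against 3.04 strong peaks per Mb. The longest run without a peak spans 1356 kb from 23094647 to 24450290, and another of 898 kb runs from 21932185 to 22830478. Median peak length was alike, 422 bp in the segment and 428 bp outside it. Of the 50 strong peaks, 78% lie at a start site, 12% between genes, 6% in exons or gene ends and 4% in introns; of the weak peaks 54.2% are intergenic and 3.36% lie at a start site. The peaks name 88 genes. At the lower edge, the last peak outside (15495857) had 2 WT and 8 KO reads and the first inside (15525190) had 5 and 6. At the upper edge, the last inside (36997942) had 7 WT and 3 KO reads and the first outside (37004353) 6 and 4.

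Summed, the weak peaks of the segment carried as much signal in KO as in WT or slightly more, whereas weak peaks elsewhere on the chromosome carried less. In Tfh21 the KO to WT ratio of summed CPM was 1.08 (1.04 to 1.13) in the segment and 0.925 (0.909 to 0.941) on the rest of chromosome 12. In Tfh214 the ratios were 1.01 (0.959 to 1.05) and 0.893 (0.877 to 0.909). In Tfh4 they were 1.06 (1.02 to 1.10) and 0.971 (0.957 to 0.986). The segment's ratio therefore exceeded that of the rest of the chromosome by 1.17-fold, 1.13-fold and 1.09-fold in the 3 populations, and by 1.13-fold (1.10 to 1.16) over the pooled libraries. A ratio of ratios does not change with the scaling of whole libraries.

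The pooled weak-peak ratio of the segment, 1.05 (1.03 to 1.08), can be set against whole chromosomes. Over the 19 autosomes it ran from 0.913 to 0.972 with a median of 0.941, and chromosome 12 with the segment included stood at 0.951. The segment was chosen from this contrast and holds 1430 weak peaks, against 6126 on chromosome 19. Its distance from the autosomes could follow from that choice alone and was not tested. Single windows of 1 Mb elsewhere on chromosome 12 reached 1.22. The X chromosome stood higher than the segment, at 1.16 (1.13 to 1.18). The Y chromosome, with 63 weak peaks, gave 1.10 (1.02 to 1.19), an interval that overlaps the segment's.

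**Figure D1:**
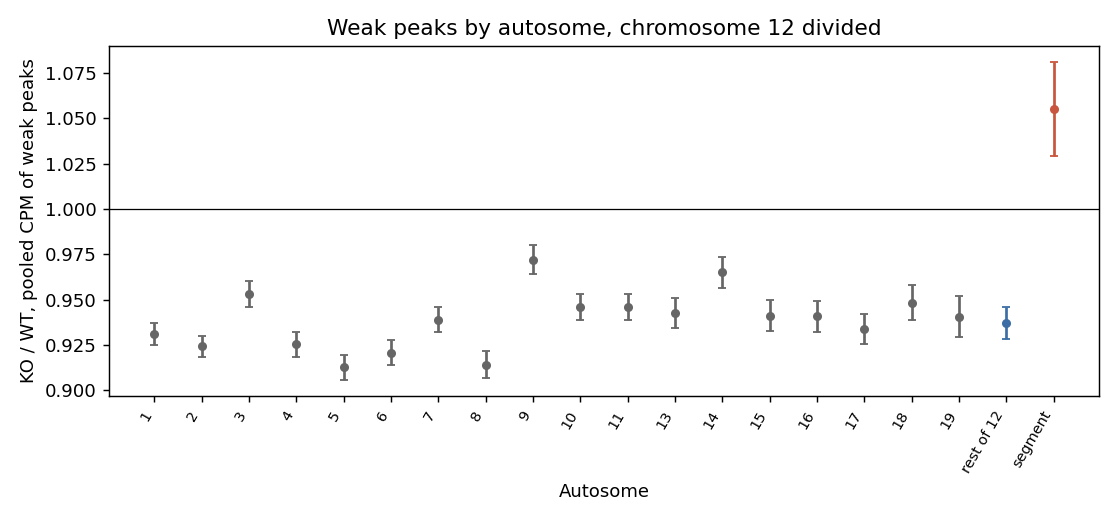
Ratio of KO to WT pooled CPM over weak peaks (y axis, linear, not starting at 0) for each autosome, with chromosome 12 divided into the segment and the rest; bars are exact binomial 95% intervals for counting error. The segment, at 1.05, is the only point above 1, and the autosomes lie at 0.972 or below. It was chosen from this contrast, so its place here could follow from that choice alone.

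Strong peaks differed less from their surroundings. The segment's KO to WT ratios were 1.20 (1.14 to 1.28) in Tfh21, 1.21 (1.14 to 1.29) in Tfh214 and 1.22 (1.15 to 1.29) in Tfh4, but strong peaks of the rest of chromosome 12 were also above 1, at 1.17, 1.12 and 1.12. The ratio of the segment to the rest was 1.03 (0.967 to 1.10), 1.08 (1.01 to 1.16) and 1.09 (1.02 to 1.16), and 1.06 (1.03 to 1.10) pooled. In Tfh21 the interval includes no difference from the rest, and against flanking windows of the same total length the pooled value was 1.04 (0.984 to 1.10). The median log2 difference of the 50 strong peaks was 0.26, 0.30 and 0.29 in Tfh21, Tfh214 and Tfh4, beside 0.23, 0.17 and 0.15 over all 8986 strong peaks. The median weak peak moved little, with 0.05, -0.05 and 0.09 in the segment and 0, -0.19 and 0.03 over all 273912 weak peaks.

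Read as shares, every KO library placed more of its chromosome 12 reads in the segment than every WT library. The segment took 13.0%, 13.1% and 13.1% of chromosome 12 reads in the WT libraries of Tfh21, Tfh214 and Tfh4, and 14.4%, 14.4% and 14.2% in the KO libraries. For weak peaks the shares were 12.1%, 12.3% and 12.6% in WT and 13.8%, 13.6% and 13.6% in KO. For strong peaks they were 14.9%, 14.9% and 14.6% in WT and 15.3%, 15.9% and 15.7% in KO, with overlapping Wilson intervals. The genotype contrast in these libraries chose the segment, so a gap in these shares could follow from that choice alone and was not tested.

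**Figure D2:**
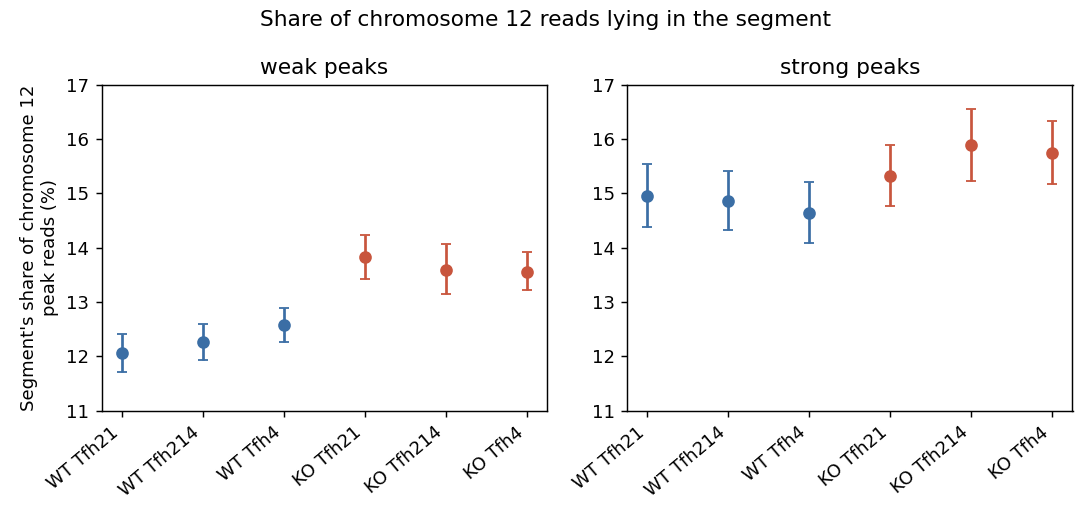
Share of each library's chromosome 12 peak reads that lie in the segment, in percent (y axis from 11 to 17), for weak peaks (left) and strong peaks (right); blue is WT, red is KO, and bars are Wilson 95% intervals. In both panels the 3 KO points lie above the 3 WT points, with a wider gap for weak peaks.

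By depth, the shallowest weak peaks of the segment showed no KO excess of their own: 824 peaks with 10 to 14 reads over the 6 libraries gave a KO to WT ratio of 1.004 (0.964 to 1.046) and 473 with 15 to 29 reads gave 1.005 (0.964 to 1.048). Pooled, the value above 1 came from the deeper weak peaks. There, 93 with 30 to 59 reads gave 1.13 (1.06 to 1.20) and 40 with 60 to 119 reads gave 1.28 (1.19 to 1.37). In these 2 classes Tfh21 gave 1.18 and 1.40 and Tfh4 gave 1.17 and 1.35. Tfh214 gave 1.01 (0.896 to 1.14) and 1.05 (0.923 to 1.20), intervals that include 1. On the rest of chromosome 12 the same 4 classes, pooled, gave 0.881, 0.928, 1.02 and 1.16. Set against that, the segment's pooled ratio was above that of the rest in every depth class. Peaks with 10 to 14 reads in all gave a segment-to-rest ratio of 1.14 (1.09 to 1.19), those with 15 to 29 reads 1.08 (1.04 to 1.13), those with 30 to 59 reads 1.10 (1.03 to 1.18), those with 60 to 119 reads 1.10 (1.02 to 1.19) and those with 120 or more 1.06 (1.03 to 1.10). Within single populations these ratios also exceeded 1, but every interval at 30 to 59 and at 60 to 119 reads included 1. So did the intervals of Tfh4 at 15 to 29 reads (0.975 to 1.12) and of Tfh21 at 120 or more (0.967 to 1.10). By place, again pooled, weak start-site peaks gave 1.19 (1.08 to 1.33), weak intronic peaks 1.15 (1.09 to 1.21), weak intergenic peaks 1.12 (1.08 to 1.16) and weak exon or gene end peaks 1.09 (1.02 to 1.16). Among strong peaks, 39 start-site peaks gave 1.07 (1.03 to 1.12) and 6 intergenic peaks 1.07 (0.941 to 1.21), while 3 exon or gene end peaks gave 0.869 (0.721 to 1.05), below the rest in all 3 populations. The segment's peaks abut a neighbour more often than others on the chromosome (9.80% against 6.93%, and 8.33% in the whole table).

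The excess was not even along the segment. Of its 17 windows of 1 Mb with at least 20 weak peaks (the first begins before the segment), 8 had an interval wholly above the ratio of the rest of chromosome 12 and 1 had an interval wholly below it, against 13 and 19 of 97 windows elsewhere. The highest windows were 35 to 36 Mb at 1.36 (1.18 to 1.56), which holds Snx13 and the start of Hdac9, and 16 to 17 Mb at 1.27 (1.18 to 1.38), which holds Lpin1 and Greb1. Next came 31 to 32 Mb at 1.23 (1.04 to 1.46) and 36 to 37 Mb at 1.15 (1.05 to 1.26), with Ahr, Tspan13 and Bzw2. In 3 of the 17 windows the ratio exceeded 1 in all 3 populations, against 5 of 97 elsewhere. With the windows at 16 to 17 and 35 to 37 Mb left out, the pooled weak-peak excess was 1.08 (1.05 to 1.11), and over those windows alone it was 1.32 (1.25 to 1.40); both values were chosen after the windows were seen.

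**Figure D3:**
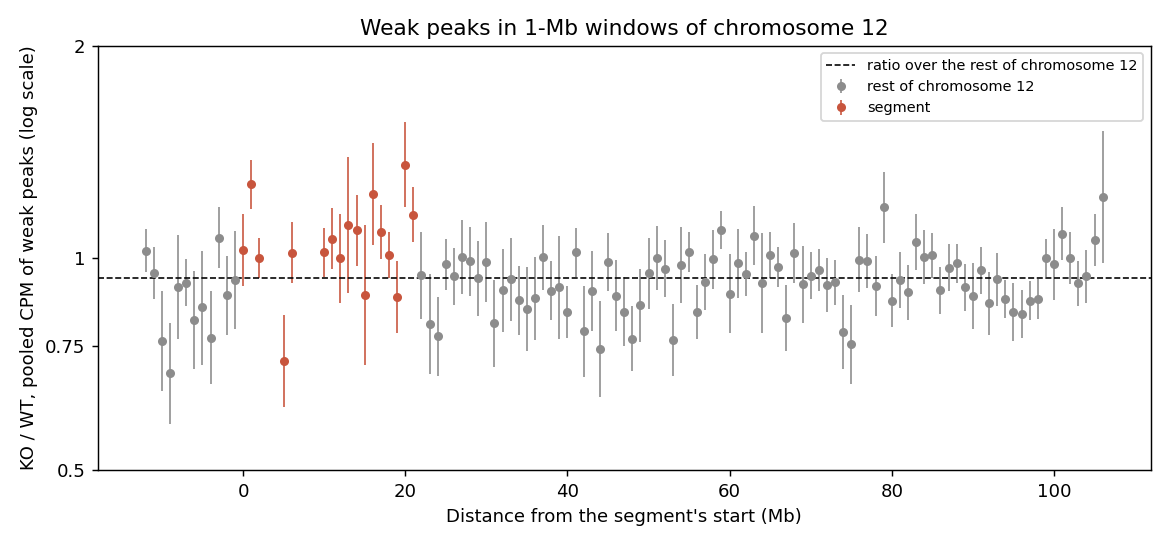
Ratio of KO to WT pooled CPM over weak peaks (y axis, log scale) in 1-Mb windows with at least 20 weak peaks, against distance from the segment's start in Mb; red points are the segment, grey the rest of chromosome 12, bars are exact binomial 95% intervals and the dashed line is the ratio of the rest. Red points run from 0.715 to 1.36 with a median of 1.03, grey points from 0.686 to 1.22 with a median of 0.926.

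One window went the other way. From 20 to 21 Mb the ratio was 0.715 (0.614 to 0.831), and 27 intergenic peaks between 20202101 and 20318599 account for much of it. The WT libraries, in the order Tfh21, Tfh214, Tfh4, held 154, 116 and 96 of their reads and the KO libraries 59, 49 and 47, a ratio of 0.517 (0.425 to 0.625). Inside them, 10 peaks packed between 20236195 and 20240226 gave 0.922 (0.703 to 1.21), and 16 of the other 17 were lower in KO, with a joint ratio of 0.291 (0.213 to 0.391). The peak with most reads among them, at 20202444, had 12, 19 and 6 WT reads and 3, 2 and 1 KO reads. This stretch and its division were picked after their values were seen.

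Peaks that lean to 1 genotype were counted next, beside the share of all peaks that do the same. Among strong peaks, 28 of 50 were above WT in all 3 populations, against 41.5% of all strong peaks, and 0 were below in all 3, against 1.7%. In 10 of 50, that is 20%, every KO library exceeded every WT library, against 13.4% of all strong peaks and 11.9% of those elsewhere on chromosome 12; in 0 of 50 every KO library was lower, against 0.323%. Among weak peaks, 243 of 1430 were above WT in all 3 populations, against 11.5%, and 153 below in all 3, against 13.2%. Every KO library exceeded every WT library in 104 weak peaks (7.27%), against 3.82%, and the reverse held in 79 (5.52%), against 6.61%. The leaning to KO thus lay above the background share and the leaning to WT below it. Since these values chose the segment, the counts support nothing further.

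Peaks at least 2-fold apart on the log2(CPM + 1) scale, where the higher library held 20 reads or more, were few. In Tfh21, 4 of 66 were higher in KO (1.66% of all such peaks) and 0 lower (0.0781%). In Tfh214, 2 of 58 were higher (0.487%) and 0 lower (0.696%). In Tfh4, 3 of 64 were higher (2.14%) and 0 lower (0.717%). Only the Trappc12 start-site peak met the threshold in more than 1 population, in Tfh21 and Tfh214. The others were peaks in the 3′ UTR of 9130015A21Rik, in intron 2 of Atxn7l1 and at 26678880 between genes (Tfh21), an intergenic peak at 16538894 (Tfh214), and a Tspan13 intron 1 peak, a Lpin1 peak and an intergenic peak at 33459324 (Tfh4).

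The largest mean log2 difference among the strong peaks lay beside Lpin1. The intergenic peak at 16538894 to 16539728, past the 3′ end of the Lpin1 transcript at 16542475, had 26, 30 and 30 WT reads, again in the order Tfh21, Tfh214, Tfh4 (23.2, 23.6 and 21.8 CPM) and 43, 44 and 48 reads in KO (40.9, 55.1 and 38.8 CPM). All 3 KO libraries lay above all 3 WT libraries, and the pooled ratio was 1.92 (1.45 to 2.54). The small peak next to it at 16540224 had 0, 2 and 3 WT reads and 9, 4 and 5 KO reads, a ratio of 4.39 (1.57 to 15.1). On its other side, a peak at 16536783 had 0, 5 and 3 WT reads and 1, 0 and 1 KO reads and one at 16537804 had 8, 4 and 1 against 1, 0 and 2, so neighbouring peaks did not all lean the same way.

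Within Lpin1, the difference was in the first stretch of the transcript listed with the peaks rather than at its listed start (16596577, mm9). RefSeq (GRCm38.p6) gives a Lpin1 start at 16610966, which may be another start further upstream. Peaks described here as before the start may therefore lie inside the gene. The peak at 16590557, listed in a 5′ UTR exon 5313 bp from the start, had 2, 4 and 6 WT reads and 13, 5 and 23 KO reads, a ratio of 4.17 (2.15 to 8.71), with every KO library above every WT library. The peak at 16595126, 1177 bp from the start, had 0, 0 and 1 WT reads against 3, 2 and 5 in KO, and one in intron 5 at 16576107 had 0, 0 and 2 against 5, 2 and 2. The start-site peak at 16596392 had 15, 14 and 12 WT reads and 11, 7 and 10 KO reads, a ratio of 0.833 (0.496 to 1.38). A peak just before the listed start, at 16598271, gave 1.57 (1.06 to 2.33). Summed over its 12 peaks, Lpin1 had 30.3, 29.1 and 34.2 CPM in WT and 52.3, 40.1 and 54.1 CPM in KO, a ratio of 1.59 (1.24 to 2.04).

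**Figure D4:**
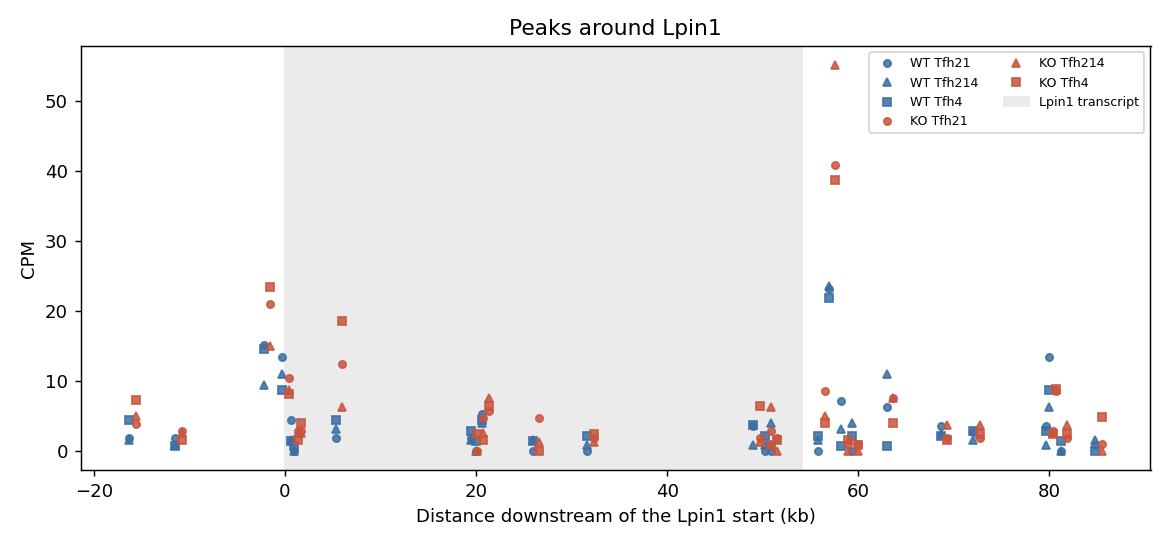
CPM of each peak around Lpin1 (y axis, linear) against its distance downstream of the listed Lpin1 start (mm9) in kb. Blue is WT and red is KO, marker shapes are the populations, and the shaded band is the listed transcript. Points of the genotypes are shifted apart slightly for sight. The red points of the peak past the transcript's end lie between 38.8 and 55.1 CPM, above the blue ones at 21.8 to 23.6.

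Trib2 leaned to KO at its promoter. Its start-site peak at 15822933 to 15824118 had 63, 74 and 72 reads in WT (56.1, 58.2 and 52.4 CPM) and 96, 64 and 79 in KO (91.3, 80.1 and 63.8 CPM). The groups did not overlap in CPM, and the pooled ratio was 1.40 (1.15 to 1.69), beside 1.12 for strong start-site peaks on the rest of chromosome 12. Tfh21 gave 1.63 (1.17 to 2.27), while the intervals of Tfh214 (1.38, 0.970 to 1.95) and Tfh4 (1.22, 0.873 to 1.70) include 1. The 5 peaks of intron 1 and the 5′ UTR exon next to it ran from 0.748 to 1.53, each with an interval that includes 1. Over all 8 Trib2 peaks the ratio was 1.27 (1.09 to 1.49).

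Taf1b rested on 1 of 2 abutting start-site peaks. The one at 25183460 had 6, 2 and 6 WT reads and 12, 14 and 15 KO reads, a ratio of 3.57 (1.91 to 7.10), and every KO library exceeded every WT library. The one at 25183207, which ends where the other begins, had 3, 4 and 7 against 6, 4 and 6 reads, a ratio of 1.39 (0.638 to 3.08). The 6 Taf1b peaks together gave 1.63 (1.15 to 2.33).

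Trappc12 was split along its length. Its start-site peak at 29434948 had 10, 8 and 13 reads in WT and 26, 20 and 20 in KO. In CPM the groups did not overlap, with a highest WT value of 9.47 and a lowest KO value of 16.1, and the ratio was 2.60 (1.67 to 4.12). The strong peak upstream at 29436281 to 29436939, which also spans the listed start of Tssc1 (29436693) on the other strand, had 22, 21 and 26 against 28, 23 and 32 reads, a ratio of 1.47 (1.05 to 2.05). In introns 8 and 9 the peaks leaned the other way, and the one at 29379993 had 8, 6 and 7 WT reads and 2, 2 and 2 KO reads, a ratio of 0.349 (0.115 to 0.893). Over all 19 peaks the ratio was therefore only 1.16 (0.974 to 1.39), and the sum hides both directions.

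Tspan13 had a start-site peak at 36768415 with 62, 62 and 51 reads in WT (55.2, 48.8 and 37.1 CPM) and 79, 52 and 64 in KO (75.2, 65.1 and 51.7 CPM). KO exceeded WT in each population, but KO Tfh4 lay below WT Tfh21, so the groups overlapped; the ratio was 1.36 (1.10 to 1.68). An intron 1 peak at 36752259 was high in 1 library only, with 8, 2 and 1 WT reads and 8, 3 and 20 KO reads. Its pooled ratio of 3.44 (1.68 to 7.58) thus rests on KO Tfh4.

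Ratios above 1 were also seen at other promoters of the segment. Strong start-site peaks on the rest of chromosome 12 stood at 1.12 themselves, so ratios near that are not particular to the segment. Tmem18, a transmembrane protein of the nuclear envelope, had 28, 38 and 30 start-site reads in WT and 38, 34 and 44 in KO (1.47, 1.12 to 1.95). Klf11, a Krüppel-like repressor, gave 1.27 (1.05 to 1.53), Bzw2 1.27 (1.07 to 1.50), Ccdc71l 1.39 (1.14 to 1.68) and Adi1, an enzyme of the methionine salvage pathway, 1.34 (0.932 to 1.94). In these 5 start-site peaks every KO library exceeded every WT library. Ywhaq, a 14-3-3 protein, gave 1.29 (1.04 to 1.61) and Nampt, the rate-limiting enzyme of NAD salvage, 1.23 (1.02 to 1.48). Inside genes, an intron 4 peak of Tssc1 gave 1.39 (1.09 to 1.78) and a 5′ UTR exon peak of Hpcal1 1.39 (1.05 to 1.84).

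Several promoters of immune interest had lower ratios than the promoters just named. Start-site peaks of other genes did too, among them Rock2 (1.14, 0.937 to 1.40), Odc1 (1.16, 0.937 to 1.44) and Rps7 (1.20, 0.921 to 1.56). Such ratios are therefore not particular to immune genes. On the rest of chromosome 12, strong start-site peaks gave 1.12 and weak ones, the class of the Pik3cg peak, gave 1.04. Ahr and Pik3cg lay above these values, with intervals that include them. Ahr, the aryl hydrocarbon receptor, gave 1.17 (0.905 to 1.52), Pik3cg, a PI3-kinase catalytic subunit of leukocytes, 1.17 (0.749 to 1.81), and Adam17, a sheddase of TNF, 1.10 (0.841 to 1.44). Id2, an inhibitor of E proteins, had 41, 45 and 36 start-site reads in WT and 42, 29 and 28 in KO, a ratio of 0.990 (0.752 to 1.301). The lowest strong peak was the 3′ UTR peak of F730043M19Rik at 33816461, with 41, 39 and 28 reads in WT and 26, 12 and 26 in KO (0.723, 0.522 to 0.994), where KO Tfh4 was not below WT Tfh4 in CPM.

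**Figure D5:**
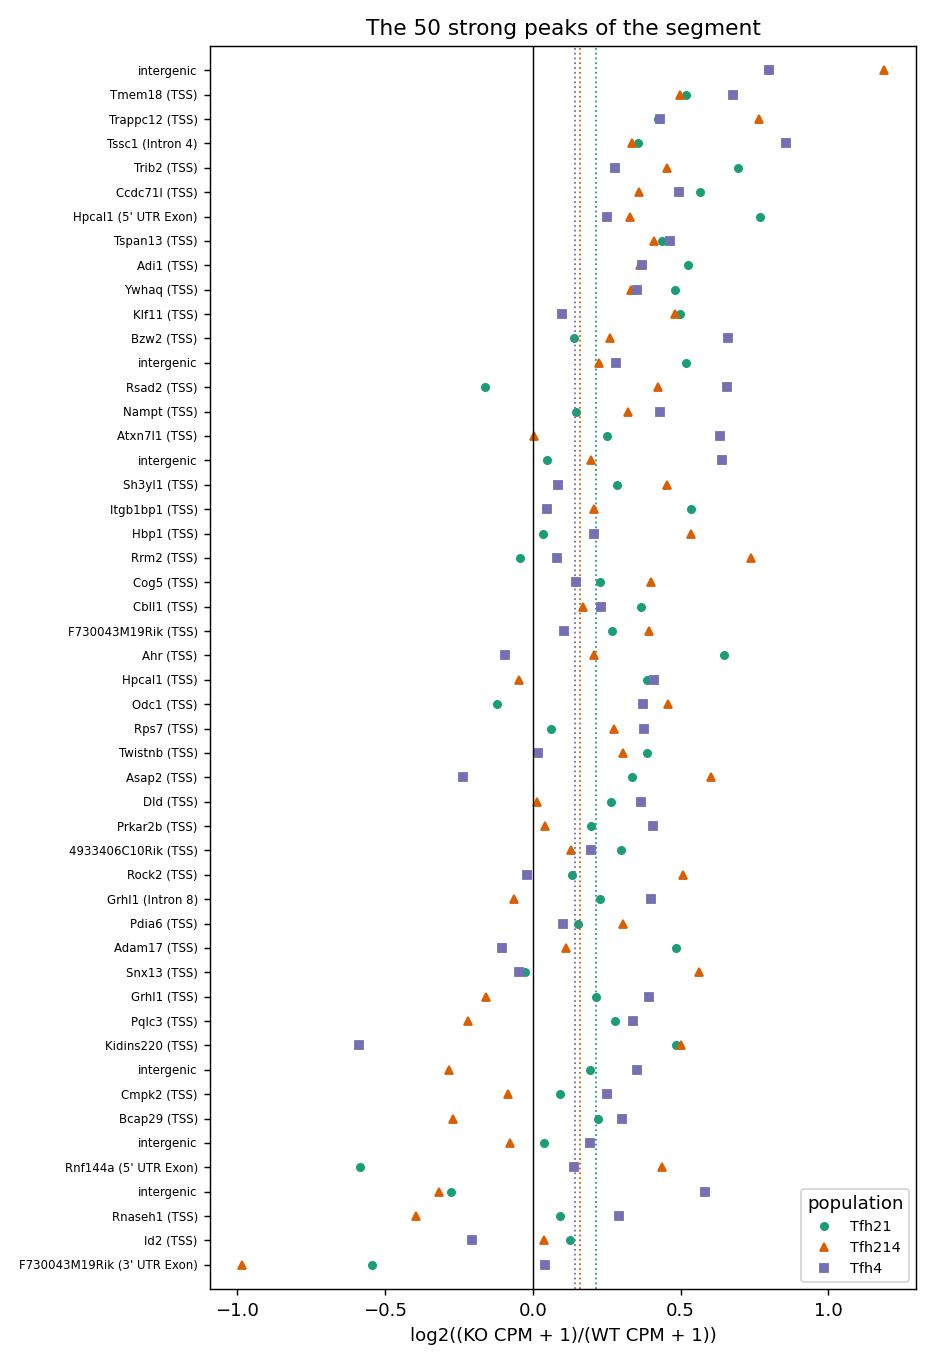
Log2 ratio of KO to WT, (CPM + 1) over (CPM + 1), in each population (marker) for the 50 strong peaks of the segment, ordered by their mean; dotted lines are the medians of strong peaks on the rest of chromosome 12 in the same colours. The intergenic peak beside Lpin1 stands at the top and the F730043M19Rik 3′ UTR peak at the bottom, and 28 of the 50 peaks lie to the right of 0 in all 3 populations.

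Summed per gene, 64 of the 88 genes had at least 60 reads and 24 did not. KO was above WT in all 3 populations in 26 of the 64, against 21.8% of all such genes, and below in all 3 in 4, against 11.5%. The median log2 difference was 0.18, beside 0.03 for 418 genes on the rest of the chromosome and 0.05 for 13527 genes in all. The differences between functional lists were not tested. Of 12 regulators of transcription and chromatin, 5 were above in all 3 populations and 0 below, with a median of 0.21; Taf1b (1.63) and Klf11 (1.26) were among them, while Id2 (0.897, 0.706 to 1.14) was not. Of 15 signalling and adhesion genes, 8 were above and 0 below, with a median of 0.23, among them Tmem18 (1.57) and Prkar2b, a regulatory subunit of protein kinase A (1.305, 1.12 to 1.53). Of 12 metabolic genes, 5 were above and 0 below, with a median of 0.19, among them Lpin1 and Adi1 (1.51, 1.09 to 2.10). Of 12 genes of trafficking, folding and translation, 5 were above and 2 below, with a median of 0.19; Snx13 (1.36, 1.10 to 1.67) and Tssc1 (1.34, 1.13 to 1.58) were above, and the secretory protein disulfide isomerase Agr2 (0.719, 0.410 to 1.24) and Pdia6, of the same family (0.910, 0.689 to 1.20), were below.

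A small set of weak peaks was nearly confined to 1 genotype. In all, 8 peaks had at most 1 read over the 3 WT libraries (0.541% of 1480, against 0.148% of all peaks), and 35 had at most 1 over the 3 KO libraries (2.36%, against 2.27%). Pooled at 4-fold or more, 18 weak peaks were higher in KO (1.26%, against 0.349%) and 38 lower (2.66%, against 2.35%). The 18 include 4 of the 111 weak peaks between 16 and 17 Mb and 4 of 74 between 29 and 30 Mb. They also include 3 of 57 between 35 and 36 Mb. The 38 include 9 of 118 between 32 and 33 Mb and 7 of 39 between 20 and 21 Mb. Start-site peaks make up 1 of the 18 and 0 of the 38, and they are 3.36% of all weak peaks of the segment.

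The clearest of these, by reads, was an intergenic peak at 35675077 to 35675462, between Hdac9 and Snx13. It had 2, 1 and 2 reads in WT and 12, 11 and 18 in KO, a ratio of 10.0 (3.96 to 32.4), and the abutting peak at 35674932 had 1, 0 and 1 against 4, 3 and 2. An intergenic peak at 33684638 had 1, 0 and 1 WT reads and 8, 6 and 5 KO reads, and a peak in intron 1 of Snx13 at 35732446 had 0, 1 and 1 against 2, 7 and 5, 585 bp from the listed start, where the Snx13 start-site peak gave 1.11 (0.872 to 1.40). The intergenic peak at 21619777 had no WT read and 3, 4 and 5 KO reads, which is at least 4.88-fold higher in KO when 3 reads over the WT libraries stand for 0. In the other direction, the Cog5 intron 16 peak at 32560296 had 4, 6 and 3 WT reads and no KO read, at least 3.55-fold lower in KO by the same floor, and the intron 14 peak at 32534215 had 1, 8 and 1 WT reads and no KO read. Cog5, a subunit of the Golgi tethering complex COG, nonetheless gave 1.19 (0.943 to 1.50) at its start-site peak.

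Differences between populations did not enter the choice of the segment and were tested with limma on all 8986 strong peaks, with genotype in the model (2 residual degrees of freedom, Benjamini-Hochberg adjustment). Between Tfh214 and Tfh21, 0 of 50 segment peaks passed an adjusted p of 0.05 (0% of all), with edgeR and DESeq2 calling 0 too; before adjustment, limma put 1 of 50 below a p of 0.05. For Tfh4 against Tfh21, 3 of 50 were lower in Tfh4 and 0 higher (1.31% of all strong peaks were called, all lower). The start-site peak of Ywhaq had 48.1 and 67.5 CPM in WT and KO Tfh21 and 32.0 and 41.2 CPM in WT and KO Tfh4, a log2 difference of -0.64 ± 0.16 (SE, limma adjusted p = 0.0350). The intergenic peak at 26753008 had 35.6 and 40.9 CPM in Tfh21 and 17.5 and 22.6 in Tfh4 (-0.91 ± 0.22, limma adjusted p = 0.0333). The Tspan13 start-site peak had 55.2 and 75.2 CPM in Tfh21 and 37.1 and 51.7 in Tfh4 (-0.55 ± 0.15, limma adjusted p = 0.0483). In each, both Tfh4 libraries lay below both Tfh21 libraries.

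Against Tfh214, 3 of 50 peaks were lower in Tfh4 and 0 higher (1.98% of all strong peaks were called, all lower). They were the start-site peaks of Ywhaq (-0.71 ± 0.16, limma adjusted p = 0.0217) and of Odc1, the first enzyme of polyamine synthesis (-0.56 ± 0.16, limma adjusted p = 0.0466), and the Tssc1 intron 4 peak (-0.67 ± 0.18, limma adjusted p = 0.0401). The median of all strong peaks was itself -0.27 against Tfh21 and -0.23 against Tfh214, and the segment's medians, -0.29 and -0.24, were near these. Once libraries were scaled by the median of ratios, which sets those medians to 0, limma called 0 of 50 in both contrasts, and edgeR and DESeq2 on recovered reads called 0 as well. On CPM as deposited, limma also called 0 of 50 in both contrasts without the variance trend, and none of the segment's 1480 peaks without a minimum of reads.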

How the data were processed

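ATAC-seq libraries of 6 samples were read from 1 deposited peak table (mm9). The submitters' processing notes name Bowtie 1.3.0, MACS2 2.0 and HOMER; they give no roles, filters or Tn5 shift. The deposited values are CPM, scaled by the authors to each library's reads in peaks. They were turned back into whole reads (at least 99.9989% of values per library within 0.02 of a whole read). A peak was called strong at a mean of 20 reads or more over the libraries. Ratios compare summed CPM, with exact binomial intervals; ratios of ratios use normal intervals on the log scale, and shares use Wilson intervals. Per-peak log2 values use a pseudocount of 1 CPM. Populations were compared with limma 3.58.1 on log2(CPM + 1), genotype and population additive, with a variance trend; edgeR 4.0.16 and DESeq2 1.42.0 on recovered reads were alternatives, and the fit was tested on simulated data. No sample was dropped. The segment's members, gene lists and alternatives were chosen with earlier results of these data known. Named items are the 5 genes of the segment's description, preset start-site peaks, the strong and weak peaks at both ends of the order, and peaks called between populations; those picked after their values were seen are so described. With 1 library per genotype and population, p-values between populations measure only the spread between these libraries. Promoter windows are from RefSeq.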

Additional observations from a re-analysis of the deposited data

How the results depend on the processing

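The weak-peak excess of the segment over the rest of chromosome 12 stayed between 1.11 and 1.16 when the weak and strong classes, the reference, the annotation class or a population was changed, and when the 5 named genes or peaks with at most 1 read in a genotype were left out. It was 1.08 without the windows at 16 to 17 and 35 to 37 Mb and 1.32 in those windows alone, where the strong-peak excess was 1.13; these choices were made after seeing the data. The strong-peak excess was 1.03 (0.938 to 1.12) without start-site peaks and 1.04 against flanking windows. Counts of 2-fold peaks depended on the read minimum. With at least 10 reads, 120, 122 and 143 peaks entered in Tfh21, Tfh214 and Tfh4. Of these, 12, 8 and 16 were higher in KO and 8, 13 and 11 lower. With at least 30 reads, 0 of 42, 1 of 44 and 0 of 40 were higher. With no minimum, 258, 262 and 200 of 1480 were higher and 214, 282 and 250 lower. The share over all peaks is not given at these settings, so these counts are not set against a background. In Tfh214, 1 peak was lower with a pseudocount of 0.5 CPM, with median-of-ratios scaling and with TMM factors. For both Tfh4 contrasts, 0 segment peaks were called by DESeq2, by edgeR, with median-of-ratios scaling, with no read minimum and with no variance trend, and at a mean of 10 reads 1 was called against Tfh214; the cause was not tested. The labels give no replicate numbers, so no fit with a replicate block was made; the population contrasts already hold genotype as a term, and KO was set against WT within each population. Depth limits single weak peaks: 824 of 1430 hold 10 to 14 reads over the 6 libraries.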
